A study of Mus musculus with 9 samples.

Results

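miR-22 and miR-378a are microRNAs (miRNAs) of heart and skeletal muscle that are tied to how muscle uses fuel. They were chosen by name, as the precursors mmu-mir-22 and mmu-mir-378a, and make up 2 of the 661 miRNA precursors and 2 of the 996 small RNA features found in 9 libraries of mouse atrial appendages. Genome-matched and unmatched reads were to be added, and both precursors had genome-matched reads only. Libraries were made by PANDORA-seq, in which the demethylase AlkB and an end-repairing kinase act on the RNA before adapters are ligated, so that modified RNA of 15 to 45 nucleotides is also read. All mice were C57BL/6. There were 3 groups of 3 libraries: young mice of 5 months without curcumin, old mice of 18 months without curcumin, and mice of 18 months that had received 100 mg/kg curcumin daily in skim milk since the age of 12 months. Curcumin is the yellow polyphenol of turmeric root. The labels do not say whether a library holds 1 animal or several, and p-values measure the spread between these libraries. The whole appendage was used, so fewer cells of a type and less RNA per cell cannot be told apart.

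A miRNA binds mRNAs through its seed, bases 2 to 8 of the mature strand, and lowers their translation and stability. miR-22 is abundant in cardiomyocytes, where it is known to promote hypertrophic growth and to act on regulators of metabolism such as Sirt1, a deacetylase that responds to nutrient state. miR-378a lies within Ppargc1b, the gene of PGC-1β, a coactivator of mitochondrial and fatty acid oxidation genes, and is made together with it. It is known to restrain oxidative metabolism in muscle and to target the growth factor receptor Igf1r in cardiomyocytes.

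The Mir22 hairpin lies on chromosome 11 (mm10, 75463716 to 75463810, plus strand) in exon 2 of both annotated transcripts of the non-coding gene Mir22hg. The deposited values are per precursor, so the 5′ and the 3′ strand of 1 hairpin are counted together. The hairpin of miR-22 is shown for that reason, with both mature strands in capitals (RefSeq, GRCm38.p6, chr11:75463716-75463810, plus strand):
mir-22 hairpin: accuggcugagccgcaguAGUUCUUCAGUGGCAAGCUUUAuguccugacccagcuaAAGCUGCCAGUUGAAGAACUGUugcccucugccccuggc
The mature strands of miR-22 and of the relatives of miR-378a follow (RefSeq, GRCm38.p6), with the seed in capitals. The relatives are shown because they belong to the family with which reads of miR-378a may be divided.
miR-22-5p: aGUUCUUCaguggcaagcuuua
miR-22-3p: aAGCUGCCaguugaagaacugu
miR-378b: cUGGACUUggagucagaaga
miR-378c: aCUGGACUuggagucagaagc
miR-378d: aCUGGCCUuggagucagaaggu
miR-378b and miR-378c had 19 bases in common in 1 unbroken run, which starts at base 1 of miR-378b and base 2 of miR-378c, so their seeds are shifted by 1 base. The longest unbroken run that miR-378d had in common with each of them was 14 bases. Bases before that run also match, and its seed is a different one.

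Clean reads ranged from 12899427 to 19707803 per library, and miRNAs took between 1.23% and 4.66% of them. The libraries numbered 1 had more genome-matched reads (72.2% to 73.7%) than the other 6 (65.0% to 68.3%), and each group holds 1 of them. Levels below are in RPM, reads per 1000000, either of all clean reads (clean RPM) or of miRNA reads (miRNA RPM). The 8 miRNAs listed as heart and striated muscle markers were all detected and summed to between 307032 and 431014 miRNA RPM. miR-126a of endothelial cells stood at 214741 to 281663 miRNA RPM. The 5 markers listed for brown fat and adipocytes, cells in which miR-378a is also known, were all detected at low levels. They summed to 14.9 to 28.2 miRNA RPM in old mice, 4.76 to 12.3 in young mice and 6.85 to 28.5 under curcumin. The libraries held 210212 to 918466 miRNA reads, so these sums rest on few reads. Old and young libraries did not overlap in these sums, as they did not for 7.34% of the tested miRNAs. The part of these cells in the levels of miR-378a was not tested.

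Both miRNAs were detected in every library, and miR-378a exceeded miR-22 in all 9. In the order of replicates 1, 2 and 3, miR-22 had 833, 354 and 347 reads in young mice, 550, 327 and 453 reads in old mice, and 709, 967 and 581 reads under curcumin. miR-378a had 2466.33, 1533 and 2048.67 reads in young mice, 2030.67, 1385.83 and 2375.5 reads in old mice, and 1697.5, 2714.67 and 2184.83 reads under curcumin. The 95% Wilson interval of a level extended by 6.30% to 10.8% of the value for miR-22 and by 3.76% to 5.25% for miR-378a. These intervals cover counting error at most, not the spread between libraries. Whether PCR copies were removed is not given, and copies left in would make the intervals too narrow. By reads miR-22 ranked between 54 and 65 among the miRNAs of a library, and miR-378a between 20 and 45.

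Per clean read, miR-22 had its highest mean with curcumin. Young replicates 1 to 3 stood at 42.3, 22.6 and 26.9 clean RPM, the old replicates at 34.1, 18.8 and 27.1, and the curcumin replicates at 40.5, 56.0 and 40.7. All 3 curcumin libraries lay above all 3 old libraries, while young replicate 1 lay within the curcumin range. Means with their SD (n = 3 for each group throughout) were 30.6 ± 10.3 (young), 26.7 ± 7.64 (old) and 45.7 ± 8.87 clean RPM (curcumin).

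miR-378a showed no such separation per clean read. Young replicates 1 to 3 stood at 125, 97.9 and 159 clean RPM, the old replicates at 126, 79.9 and 142, and the curcumin replicates at 96.9, 157 and 153. The 3 groups overlapped throughout, with means of 127 ± 30.5 (young), 116 ± 32.2 (old) and 136 ± 33.6 clean RPM (curcumin).

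Per miRNA read, the order of the groups was a different one. miR-22 stood at 907, 1684 and 1428 miRNA RPM in young replicates 1 to 3, at 1028, 1535 and 1144 for old mice and at 1263, 1325 and 1154 under curcumin. The curcumin libraries lay close together and inside the range of the young libraries. The means of 1340 ± 396 (young), 1236 ± 266 (old) and 1247 ± 86.9 (curcumin) lay closer to each other than the libraries of young or of old mice did.

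miR-378a stood at 2685, 7293 and 8430 miRNA RPM in young replicates 1 to 3, at 3794, 6507 and 5997 for old mice and at 3024, 3721 and 4339 under curcumin. The lowest value of all was in young replicate 1, and 2 of the 3 curcumin libraries lay below every old library. The means were 6136 ± 3042 (young), 5433 ± 1442 (old) and 3695 ± 658 miRNA RPM (curcumin). The summed red blood cell markers, 4 of 4 detected, had the same order of groups on this scale, at 2835 to 6353 (young), 1222 to 3461 (old) and 766 to 1422 miRNA RPM (curcumin). The summed striated muscle markers were highest in curcumin replicates 2 and 3. The smooth muscle markers, 2 of 2 detected, summed to 17538 to 18343 miRNA RPM under curcumin, above every old library (14146 to 16647) and every young library (14454 to 15810). Of single tested miRNAs, 18.3% did not overlap in curcumin-treated against old mice and 13.8% against young mice. miR-206 of skeletal muscle, at low levels, also lay higher under curcumin (14.3 to 19.2) than in old mice (4.70 to 7.57), but not than in young mice (8.23 to 23.8). The leukocyte markers overlapped between all groups. The part of these cell types in the levels of miR-22 and miR-378a was not tested.

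**Figure D1:**
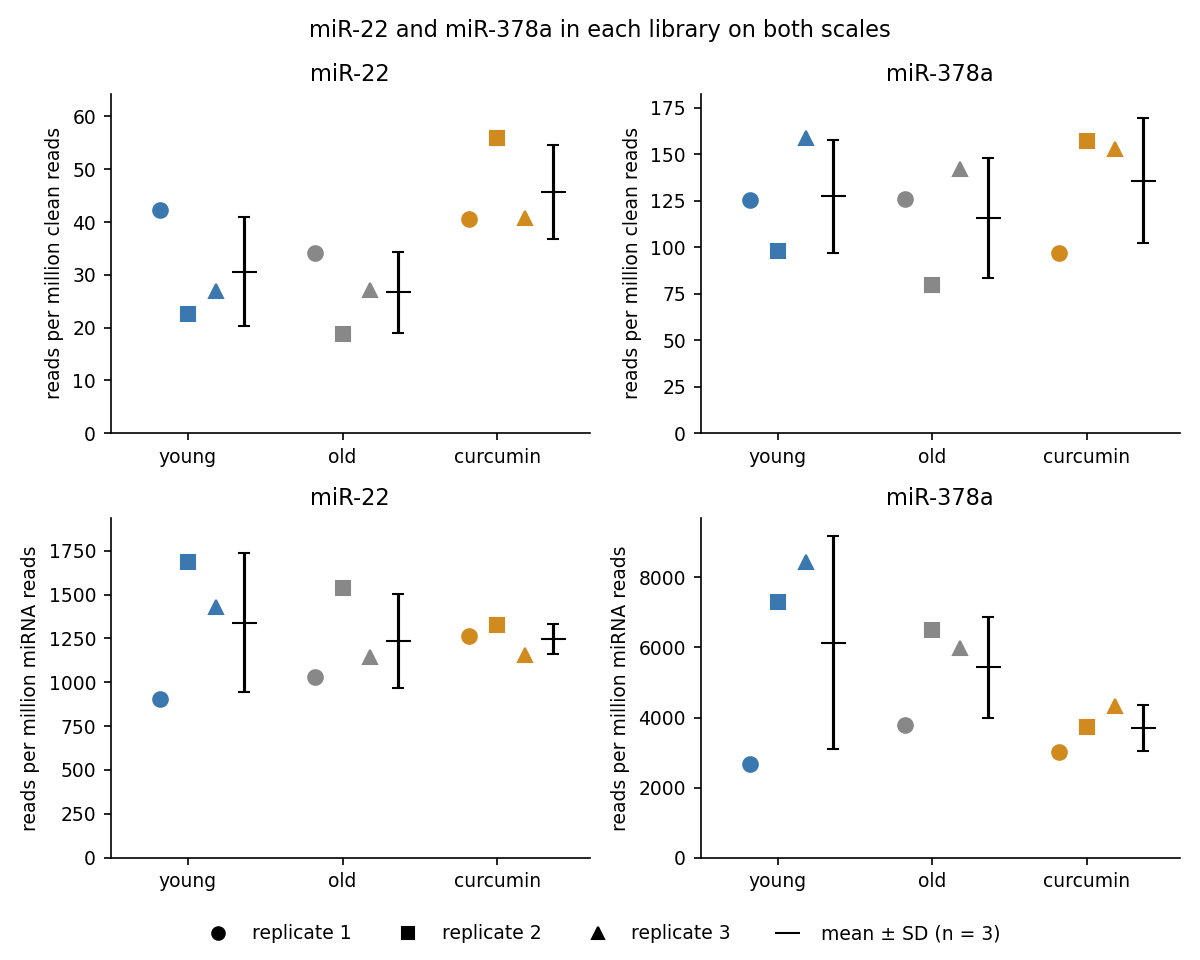
Level of miR-22 (left) and miR-378a (right) in each library by group, as reads per 1000000 clean reads (top) and per 1000000 miRNA reads (bottom). Symbols are replicate numbers and bars are mean ± SD of 3 libraries; miR-22 per clean read is higher in all 3 curcumin libraries (40.5 to 56.0) than in all 3 old libraries (18.8 to 34.1), and per miRNA read the groups overlap for both miRNAs.

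The miRNA share of clean reads, which sets the 2 scales apart, differed between libraries. It was 4.66%, 1.34% and 1.88% in young replicates 1 to 3, 3.32%, 1.23% and 2.37% for old mice and 3.21%, 4.22% and 3.53% under curcumin. In the 3 libraries under 2% miRNA (young replicates 2 and 3, old replicate 2) miR-22 stood between 18.8 and 26.9 clean RPM, and in the 5 libraries over 3% between 34.1 and 56.0. miR-378a stood between 79.9 and 159 clean RPM in the former and between 96.9 and 157 in the latter, so that these libraries overlapped almost completely. Old replicate 3, at 2.37% miRNA, lay between these cuts, with 27.1 clean RPM of miR-22 and 142 of miR-378a. The cuts at 2% and 3% were not part of the planned tests. How many other miRNAs split in the same way was not counted, so the split is not shown to be particular to miR-22. Both axes of this comparison share the clean reads of a library, and the part of the miRNA share in the differences between groups was not tested.

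**Figure D2:**
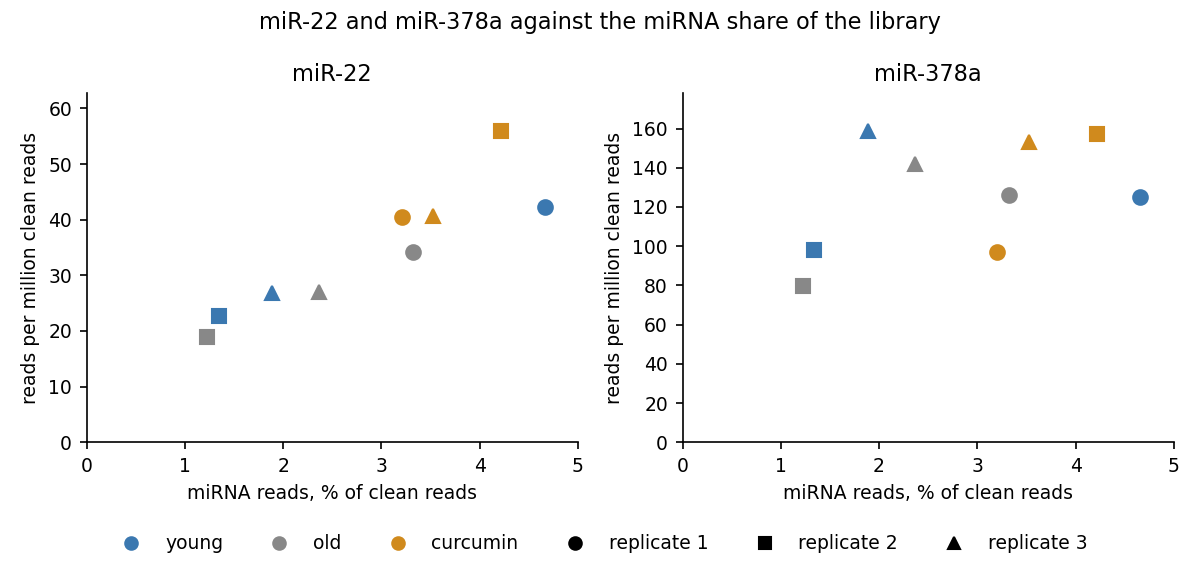
Reads per 1000000 clean reads of miR-22 (left) and miR-378a (right) against the miRNA share of clean reads in percent, 1 point per library, coloured by group and shaped by replicate number. miR-22 is higher in the 5 libraries over 3% miRNA (34.1 to 56.0) than in the 3 under 2% (18.8 to 26.9), while the miR-378a values of these libraries overlap. How many other miRNAs split as miR-22 does was not counted.

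The variation over all 9 libraries is given as a description, among the 172 tested miRNAs with a mean of at least 50 miRNA RPM. On the log2 scale miR-378a had an SD of 0.36 per clean read, rank 155 from the most variable, and of 0.58 per miRNA read, rank 54. miR-22 had an SD of 0.50 per clean read, rank 121, and of 0.28 per miRNA read, rank 130. The medians were 0.67 per clean read and 0.47 per miRNA read.

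Old against young mice asks what differs with age. Neither miRNA passed the test, and the fitted differences were smaller than their errors. A feature was called at an adjusted p (Benjamini-Hochberg) under 0.05. edgeR's quasi-likelihood test on all 520 features that passed its filter on low counts gave miR-22 a log2 change of −0.15 (SE 0.32, 95% interval −0.86 to 0.57, adjusted p = 0.999). For miR-378a it was −0.14 (SE 0.33, interval −0.88 to 0.61, adjusted p = 0.999). With miRNAs scaled and fitted alone, these 2 and 216 others, the edgeR log2 changes were −0.083 for miR-22 (SE 0.22, adjusted p = 0.973) and −0.12 for miR-378a (SE 0.31, adjusted p = 0.973). edgeR called 0% of features in either fit, with 5 features and 4 miRNAs at an unadjusted p under 0.05. DESeq2 and limma-voom called 0 as well.

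The difference between old and young means was −3.92 clean RPM for miR-22 and −11.4 clean RPM for miR-378a, each with an exact two-sided permutation p of 0.7 (adjusted p = 1 over 520 features). With 3 libraries against 3 this test cannot give a p under 0.1. The groups overlapped for both miRNAs, and 4.04% of features had groups that did not. On the other scale the differences were −104 miRNA RPM for miR-22 (exact permutation p = 0.8) and −703 for miR-378a (exact permutation p = 0.7), both with an adjusted p of 1. Here too both overlapped, and 7.34% of miRNAs did not. Within replicate numbers 1, 2 and 3 the difference of miR-378a was 1109, −785 and −2434 miRNA RPM, and that of miR-22 was 121, −149 and −284. Without old replicate 1 the difference of miR-378a turned to 116, without young replicate 3 to 444, and without young replicate 2 that of miR-22 turned to 68.1 miRNA RPM.

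Curcumin-treated against untreated old mice compares animals of equal age with and without curcumin. miR-22 had a higher fitted value with curcumin, miR-378a had values on both sides of 0, and neither passed. For miR-22 the log2 change was 0.55 among all features (SE 0.32, 95% interval −0.17 to 1.27, edgeR adjusted p = 0.917) and 0.24 among miRNAs alone (SE 0.22, interval −0.24 to 0.72, adjusted p = 0.837). For miR-378a it was 0.016 (SE 0.33, interval −0.73 to 0.76, edgeR adjusted p = 0.993) and −0.33 (SE 0.31, interval −1.02 to 0.35, adjusted p = 0.837). With miRNA-read totals in place of TMM, the fit of miRNAs alone gave 0.016 for miR-22 and −0.56 for miR-378a, and leaving out 1 library moved miR-378a there between −0.48 (without old replicate 1) and −0.13 (without old replicate 3). The median of all miRNAs also differed between the fits, from 0.25 among all features to −0.043 among miRNAs alone. edgeR called 0% of features in both fits, with 21 features and 13 miRNAs at an unadjusted p under 0.05. DESeq2 and limma-voom called 0.

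Per clean read the mean of miR-22 was 19.0 clean RPM higher with curcumin, 1.71 times the old mean. The exact permutation p was 0.1, the lowest this test reaches, and 0.703 adjusted over 520 features. The difference was positive within numbers 1, 2 and 3, at 6.38, 37.1 and 13.6 clean RPM. Of all features 10.6% were higher in every curcumin library than in every old library, and 12.7% did not overlap in either direction. Per miRNA read the difference of miR-22 was 11.9 (exact permutation p = 0.9, adjusted p = 0.976 over all miRNAs tested). It changed sign without old replicate 1 (−92.1), old replicate 3 (−34.1) or curcumin replicate 2 (−27.0), so that its sign rested on single libraries.

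miR-378a differed by 19.8 clean RPM (exact permutation p = 0.5, adjusted p = 0.807), with −29.0, 77.2 and 11.1 within the numbers. Without old replicate 2 this difference was 1.73. Per miRNA read it differed by −1738 (exact permutation p = 0.2, adjusted p = 0.545 over all miRNAs tested), at 0.680 times the old mean, and by −770, −2787 and −1658 within the numbers. Its groups overlapped, since curcumin replicate 3 lay above old replicate 1. Of all miRNAs 14.2% were lower in every curcumin library than in every old library, and 18.3% did not overlap in either direction.

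Curcumin-treated against young mice uses the same curcumin libraries again, and neither miRNA passed. For miR-22 the log2 change was 0.41 among all features (SE 0.32, 95% interval −0.31 to 1.13, edgeR adjusted p = 0.942) and 0.15 among miRNAs alone (SE 0.22, interval −0.32 to 0.63, adjusted p = 0.805). For miR-378a it was −0.12 (SE 0.33, interval −0.87 to 0.62, edgeR adjusted p = 0.957) and −0.45 (SE 0.31, interval −1.14 to 0.24, adjusted p = 0.660). In the fit of miRNAs alone miR-378a had a log2 change of −0.71 without young replicate 1, −0.12 without young replicate 3, and −0.73 with miRNA-read totals, where miR-22 turned to −0.10. miR-22 had one of 0.32 without young replicate 2 and 0.062 without young replicate 1. edgeR called 0% of features in both fits, with 19 features and 19 miRNAs at an unadjusted p under 0.05. limma-voom called 0, and DESeq2 called 1 in each fit, neither of them miR-22 or miR-378a. Blocked by replicate number, the edgeR fit of miRNAs alone called 6 miRNAs, again neither of these 2.

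By permutation miR-22 differed by 15.1 clean RPM (exact p = 0.3, adjusted p = 1) and −92.2 miRNA RPM (exact p = 0.7, adjusted p = 0.908) between curcumin-treated and young mice. miR-378a differed by 8.39 clean RPM (exact p = 1, adjusted p = 1) and −2441 miRNA RPM (exact p = 0.4, adjusted p = 0.752). All 4 overlapped, while 9.42% of features per clean read and 13.8% of miRNAs per miRNA read did not.

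Single libraries, those numbered 1 among them, weighed on miR-378a in this comparison. In the fit of miRNAs alone its log2 change of −0.45 became −0.71 without young replicate 1 and −0.30 without curcumin replicate 1. Within numbers 2 and 3 miR-378a differed by −3572 and −4092 miRNA RPM, and within number 1 by 339. Without young replicate 1 the difference of the means was −4167, and without young replicate 3 it was −1294. In a fit of miRNAs alone without the 3 libraries numbered 1, which leaves 2 libraries a group, miR-378a fell by 0.61 on the log2 scale (SE 0.19, edgeR adjusted p = 0.0297). With all 9 libraries the adjusted p was 0.660, and over all alternatives it ranged from 0.0297 to 0.955. That fit called 13.6% of its 206 miRNAs, and 4.85% were called lower. Among all features without these libraries 12.9% were called, and miR-378a was not (log2 change −0.078, SE 0.29, adjusted p = 0.877, range over alternatives 0.635 to 1).

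Against old mice without the libraries numbered 1 neither miRNA was called. miR-378a had a log2 change of −0.33 among miRNAs alone (SE 0.19, edgeR adjusted p = 0.271, range over alternatives 0.271 to 0.994, with 10.7% of miRNAs called). miR-22 had one of 0.80 among all features (SE 0.31, edgeR adjusted p = 0.0808, range over alternatives 0.0808 to 0.996, with 14.1% of features called).

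**Figure D3:**
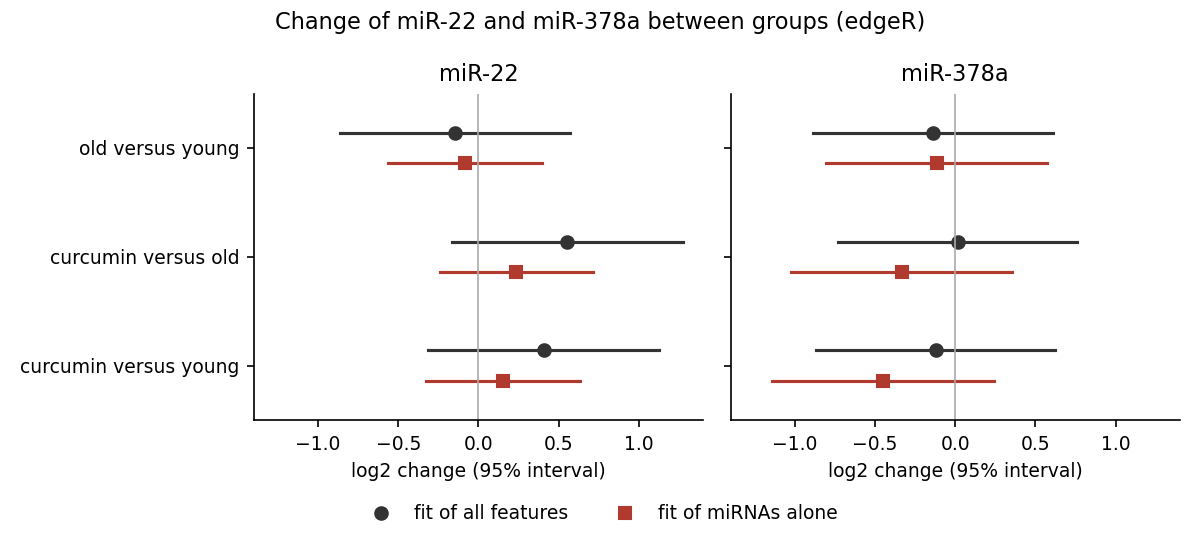
Log2 change of miR-22 (left) and miR-378a (right) for the 3 comparisons, in the edgeR fit of all 520 features (circles) and of miRNAs alone (squares). Lines are 95% intervals, all of which include 0; miR-378a in curcumin-treated against old mice sits at 0.016 in one fit and −0.33 in the other.

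The ratio of miR-378a to miR-22 within a library needs no scaling, and its mean was lowest with curcumin. Reads of miR-378a per read of miR-22 numbered 2.96, 4.33 and 5.90 in young replicates 1 to 3, 3.69, 4.24 and 5.24 for old mice and 2.39, 2.81 and 3.76 under curcumin. Each curcumin library lay below the young and the old library of the same number, and within each group the library numbered 1 had the lowest ratio. The groups overlapped, because curcumin replicate 3 lay above old replicate 1 and young replicate 1.

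On the log2 scale the ratio was 2.08 ± 0.50 (young), 2.12 ± 0.26 (old) and 1.55 ± 0.33 (curcumin). The difference of curcumin-treated from old mice was −0.57 (exact two-sided permutation p = 0.2, adjusted p = 0.3 over 3 comparisons), with −0.62, −0.59 and −0.48 within the numbers. The difference from young mice was −0.53 (exact permutation p = 0.2, adjusted p = 0.3), with −0.31, −0.63 and −0.65. An exact sign-flip test over the 3 numbers, which takes them as pairs, gave p = 0.25 against young mice, the lowest it can reach. It was run in the other comparisons as well, and its p is not given there. Old and young mice differed by 0.039 (exact permutation p = 1). With any single library left out the difference stayed between −0.75 and −0.42 against old mice and between −0.78 and −0.29 against young mice.

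**Figure D4:**
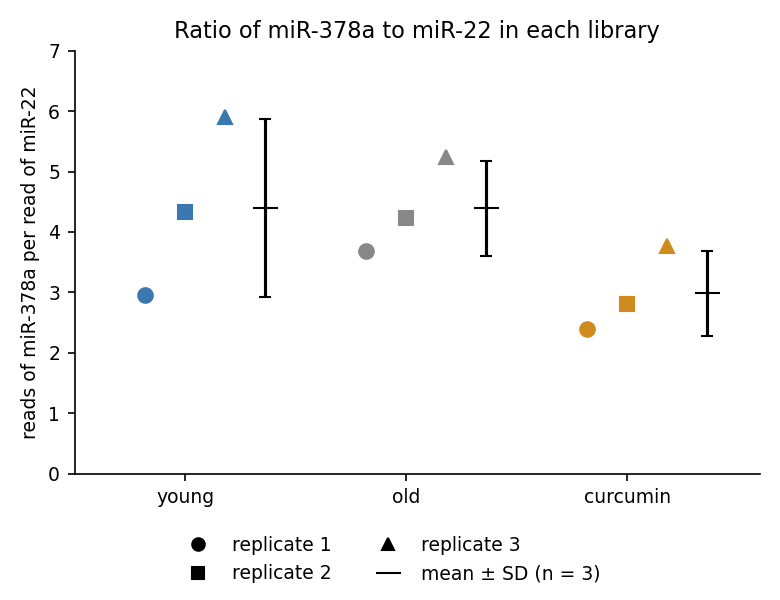
Reads of miR-378a per read of miR-22 in each library by group, with replicate numbers as symbols and bars for mean ± SD of 3 libraries. Curcumin libraries lie at 2.39 to 3.76, each below the young and the old library of the same number, and overlap with replicate 1 of both other groups.

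The levels were also set against the summed muscle marker miRNAs, which are specific to striated muscle or strongly enriched in it. Per 100 reads of the 8 muscle markers there were 0.235, 0.525 and 0.397 reads of miR-22 in young replicates 1 to 3, 0.285, 0.500 and 0.321 for old mice and 0.352, 0.307 and 0.271 under curcumin. For miR-378a there were 0.696, 2.28 and 2.34, then 1.05, 2.12 and 1.68, and under curcumin 0.842, 0.863 and 1.02. In miR-378a the 3 curcumin libraries lay closer together than those of young or of old mice, and in all 3 groups the library numbered 1 was the lowest. The curcumin libraries lay below every old library but not below young replicate 1. How many other miRNAs did so on this scale was not counted. In miRNA RPM, miR-378a was lowest in the library numbered 1 in all 3 groups, as 13.8% of the tested miRNAs were.

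Mir378a lies on chromosome 18 (mm10, 61397835 to 61397900, minus strand), within intron 1 of all 3 annotated transcripts of Ppargc1b and on the strand of its host. The related loci Mir378b (chromosome 11), Mir378c (chromosome 14) and Mir378d (chromosome 10) held few reads beside it, and miR-378a took between 89.3% and 93.5% of the reads of the 4 loci. Fractional values, which arise when a read is divided between annotations, occurred for miR-378a in 8 of 9 libraries and for miR-22 in 0 of 9. miR-378c stood at 353 ± 166 (young), 277 ± 60.5 (old) and 231 ± 19.6 miRNA RPM (curcumin). miR-378b stood at 150 ± 60.5, 126 ± 35.1 and 94.96 ± 4.31 miRNA RPM, the same order of means as miR-378a, with which it may share reads. miR-378d had at most 23 reads in a library and was tested only among miRNAs alone. None of these 3 loci passed in any comparison, and with the 4 loci summed the log2 ratio to miR-22 differed by −0.54 between curcumin-treated and old mice.

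The miRNAs nearest to each profile were found from log2 miRNA RPM, centred on the mean of each miRNA, by the mean absolute difference over the 9 libraries. For miR-22 the nearest of 171 were miR-24-2 (0.13), miR-151 (0.15) and miR-872 (0.15), against a median of 0.38 over all 171. The mature strand of miR-24 is also made from another locus, so reads of miR-24-2 may be divided. For miR-378a the nearest were miR-676 (0.15), miR-378b (0.17) and miR-378c (0.17), against a median of 0.50. miR-378b and miR-378c had fractional values in 6 and 9 of 9 libraries, so their reads may be divided with miR-378a. The part of such reads in the likeness was not tested. miR-676 stood at 1431 ± 614 (young), 1312.5 ± 413 (old) and 832 ± 150 miRNA RPM (curcumin). miR-22 was at position 39 of 171 from miR-378a, with a mean absolute difference of 0.33, below that median of 0.50.

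**Figure D5:**
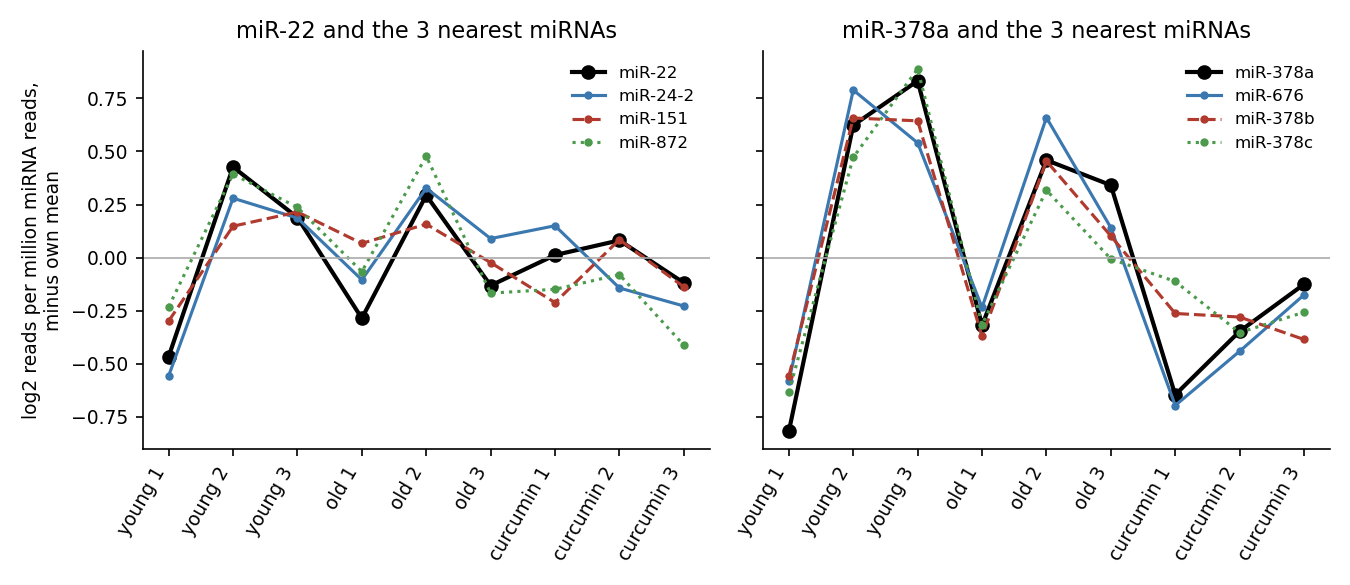
Log2 reads per 1000000 miRNA reads minus the mean of each miRNA, in the 9 libraries, for miR-22 (left) and miR-378a (right) with the 3 nearest miRNAs; lines only join the values of 1 miRNA. miR-378a, miR-676, miR-378b and miR-378c are below their means in all 3 libraries numbered 1 and in all 3 curcumin libraries. Reads of miR-378b and miR-378c may be divided with miR-378a.

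Of 18 other miRNAs linked to energy metabolism, 16 could be tested and none passed in any comparison of either edgeR fit, with 0% called as above. In curcumin-treated against old mice 15 of 16 had positive fitted values among all features, with a median log2 change of 0.57, beside 161 of 209 miRNAs and a median of 0.25. Among miRNAs alone 11 of 16 were positive, with a median of 0.29 beside −0.043 for all miRNAs. In old against young mice 12 of 16 were negative among all features, with a median of −0.15, as for all 209 miRNAs. In curcumin-treated against young mice 12 of 16 were positive among all features, with a median of 0.30 beside 0.068.

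The most abundant of these miRNAs was miR-27b, which targets regulators of lipid metabolism. It stood at 6012 ± 763 (young), 6526 ± 997 (old) and 7756 ± 622 miRNA RPM (curcumin). miR-199a-2, whose reads are divided with those of its other locus miR-199a-1, stood at 2821 ± 33.9, 2862 ± 379 and 2818 ± 52.8 miRNA RPM. miR-199a-1 stood at 2799 ± 34.2, 2854 ± 382 and 2810.2 ± 53.7. miR-23a, which targets glutaminase, stood at 2261 ± 217.6, 2417 ± 120 and 2090.3 ± 185 miRNA RPM. miR-208a, encoded within the cardiac myosin gene Myh6, was picked out after its values were seen. It stood at 959 ± 227, 740 ± 174 and 524 ± 80.1 miRNA RPM, the same order of means as miR-378a, and did not pass (edgeR on miRNAs alone, curcumin-treated against young mice, log2 change −0.62, SE 0.24, adjusted p = 0.434).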

How the data were processed

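Small RNA of mouse atrial appendages was read by PANDORA-seq in 9 libraries. The deposited values are expected counts, with reads divided where several annotations matched, as their fractions show, and without normalization. cutadapt 2.5 and mm10 are named in the submitters' processing notes. The annotation tool is not given in the sources used here, nor is any use of molecular identifiers.

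Genome-matched and unmatched reads were summed per feature, parts of a tRNA were subtracted from its total, and expected counts were rounded for the fits. edgeR 4.0.16 in R 4.3.3 (filterByExpr, TMM, robust quasi-likelihood, group as the only term, all 9 libraries) was run on all features and on miRNAs alone, with Benjamini-Hochberg adjustment. It was also run on simulated counts with a smaller spread between libraries than these data have. The changes set there were larger than those fitted for the 2 miRNAs, so the simulation does not measure power or error rates here. Group means of RPM (of clean reads or of miRNA reads) were set against each other in exact permutation tests, two-sided and adjusted over all features or miRNAs tested.

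The rule for named miRNAs took both members, the 3 nearest in profile to each, any list member that passed and otherwise the 4 most abundant of its list. miR-208a was named after its values were seen. The members, lists and tests were chosen with earlier results of these data known.

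Alternatives were RLE scaling, read totals, DESeq2 1.42.0, limma-voom (limma 3.58.1), other filters, only 2 groups, genome-matched reads, a replicate block, and leaving out each library or the libraries numbered 1. Summing the 4 miR-378 loci was chosen after the data were seen. The replicate numbers come from the sample titles, which do not say what a number shares. For numbers 1, 2 and 3, deviations of same-numbered libraries correlated at 0.81, 0.66 and 0.31 in old and young mice. The correlations were 0.33, 0.19 and 0.35 in curcumin-treated and young mice, and 0.28, −0.10 and 0.41 in curcumin-treated and old mice. Libraries of different numbers correlated at −0.75 to 0.60, so these values do not establish the numbers as pairs. The replicate block and the sign-flip test were run in every comparison all the same, and take the numbers as pairs. Differences within a number of curcumin-treated from old mice are descriptions, since the libraries numbered 1 stood apart.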

Additional observations from a re-analysis of the deposited data

How the results depend on the processing

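Apart from the fits without the 3 libraries numbered 1, no alternative run called miR-22 or miR-378a in any comparison. Without the 3 libraries numbered 1, edgeR called miR-378a lower in curcumin-treated than in young mice among miRNAs alone (log2 change −0.61). The counts of calls then rose from 0 to 73 and 22 (curcumin-treated against old mice, all features and miRNAs alone) and to 67 and 28 (against young mice), and stayed at 0 in old against young mice; only 2 libraries a group remain in that fit. With the replicate block 1 miRNA was called in curcumin-treated against old mice among miRNAs alone, miR-148a (higher), and 6 in curcumin-treated against young mice, neither miR-22 nor miR-378a among them. DESeq2 called 1 feature in curcumin-treated against young mice in each fit, the 5′ end of tRNA-His-GTG among all features and miR-541 among miRNAs alone, both lower. Leaving out young replicate 1 gave 10 calls there among miRNAs alone, and the range over single left-out libraries was 0 to 10. The cause of these differences was not tested.

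Directions near 0 did not hold. Of 198 values with 1 library left out 26 changed sign, and of 180 values under other settings 8 did. Some of the 180 could not change. For RPM and the ratio, genome-matched reads only and the replicate block return the main value. The log2 change of miR-378a in curcumin-treated against old mice among all features turned to −0.017 with limma-voom, −0.035 with genome-matched reads only and −0.0066 with the replicate block. That against young mice turned to 0.092 with clean-read totals, and that of old against young mice among miRNAs alone to 0.031 with limma-voom. The log2 change of miR-22 in curcumin-treated against young mice among miRNAs alone turned to −0.10 with miRNA-read totals. Without the libraries numbered 1 miR-22 differed by −99.9 miRNA RPM between curcumin-treated and old mice, and the log2 ratio by −0.10 between old and young mice.

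With single libraries left out, the log2 change in old against young mice ranged from −0.30 to 0.0056 for miR-22 and −0.33 to 0.14 for miR-378a among all features, and from −0.24 to 0.021 and −0.45 to 0.15 among miRNAs alone. In curcumin-treated mice among all features miR-378a ranged from −0.21 to 0.25 against old and from −0.36 to 0.21 against young mice. In clean RPM the ranges were −7.91 to 1.92 (miR-22) and −26.1 to 6.65 (miR-378a) in old against young mice, and −6.30 to 27.8 (miR-378a) in curcumin-treated against young mice. In miRNA RPM they were −320 to 68.1 (miR-22) and −2429 to 444 (miR-378a) in old against young mice, and for miR-22 −92.1 to 162 in curcumin-treated against old and −309 to 80.01 against young mice. The log2 ratio ranged from −0.22 to 0.28 in old against young mice. The replicate block gave log2 changes of 0.57 (miR-22, all features) and −0.32 (miR-378a, miRNAs alone) in curcumin-treated against old mice and changed no call of either miRNA.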
